A study of Mus musculus with 6 samples.

Results

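The BCL2 family genes described here are *Bax*, *Bak1*, *Bcl2*, *Bcl2l1*, *Mcl1*, *Bid*, *Bad*, *Bbc3*, *Bcl2l11* and *Bok*, taken by gene symbol, and they are 10 of the 16640 genes counted in the study. RNA from MIN6 cells, a mouse β-cell line derived from an insulinoma, was sequenced in 3 libraries of control cells and 3 libraries of *Thada*-activated cells. In the *Thada*-activated cells a catalytically dead Cas9 (dCas9) fused to VP64 and a guide RNA that recruits further activators raise transcription of the endogenous *Thada* gene, whereas control cells received a guide RNA without a target together with dCas9. The *Thada*-activated line is stable and was made by successive lentiviral infections with puromycin and then G418 selection, and drug selection of the control cells is not stated, so the libraries of a condition may not sample independent lines. The study states in general that in vitro work was repeated independently, but the labels of these libraries do not say whether the 3 of a condition came from separate cultures. The p-values then measure only the spread between these libraries, which may be technical.

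Proteins of the BCL2 family decide whether the outer mitochondrial membrane is opened during apoptosis. The anti-death members BCL2, BCL-XL (*Bcl2l1*) and MCL1 hold the pore-forming effectors BAX and BAK in check, and the BH3-only members BID, BAD, PUMA (*Bbc3*) and BIM (*Bcl2l11*) bind the anti-death members or activate the effectors directly. In β-cells the family has been studied for its part in cell loss under ER stress, cytokines and high glucose, and much of its control lies in protein binding, cleavage and turnover, which mRNA levels do not show.

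Library totals were 17272834, 17166511 and 17689611 estimated counts in control and 17727004, 17385036 and 17224631 in *Thada*-activated replicates 1 to 3. Values up to 3 counts, 0.169 to 0.175 CPM, were taken as not distinguishable from 0. Levels of a gene across libraries are given in CPM, its counts divided by the library total and scaled to 1e6, and levels of different genes are compared in FPKM, which also divides by transcript length. All 10 members passed the filter on low counts, and their estimated counts ran from 73 for *Bid* in control replicate 1 to 1957 for *Mcl1* in control replicate 2. The libraries of replicate 3 stood apart from those of replicates 1 and 2 in both conditions, along an axis that carried 80.1% of the variance between libraries. The biological coefficient of variation was 0.253 with condition as the only term and 0.0630 with the replicate number as a block, so the comparison of conditions is given both ways where the block matters. In *Ins2*, the most abundant of the listed β-cell marker transcripts, the replicate 3 libraries held 10.2% (control) and 8.36% (*Thada*-activated) of their counts, against 5.65% to 6.44% in the other 4 libraries.

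The β-cell label was checked against 12 marker genes. Of these, 11 passed the filter, and *Ins2* had the highest FPKM in every library. *Slc2a2*, which encodes the glucose transporter GLUT2, was near 0, with a mean of 0.0817 FPKM, and did not pass the filter. The 12 genes summed to between 256983 FPKM (control replicate 2) and 376699 FPKM (control replicate 3). Of the β-cell markers, *Pdx1*, *Mafa*, *Slc30a8* and *Ucn3* were called lower and *Ins1* higher in the replicate 3 libraries. Markers of other endocrine cells summed to between 258 and 435 FPKM, with *Sst* the most abundant in each library. Markers of exocrine and duct cells, mostly *Krt19*, summed to at most 2.14 FPKM and those of fibroblasts, endothelium and blood to at most 1.52 FPKM. Between conditions, the mean CPM of *Krt19* was 0.462 ± 0.106 (control) against 1.64 ± 0.673 (*Thada*-activated), and that of *Ucn3* was 21.2 ± 9.47 against 30.2 ± 11.5 (SD, n = 3 each). Neither was called, and with the replicate block the adjusted p was 0.0548 for *Krt19* and 0.0337 for *Ucn3* by edgeR, the latter under the fold threshold. A change in RNA per cell and a change in the share of cells that express a gene cannot be told apart in these bulk libraries.

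*Thada*, the targeted gene, had CPM values of 27.7, 29.0 and 17.0 (control replicates 1 to 3) against 57.4, 56.2 and 50.2 (*Thada*-activated replicates 1 to 3). Each *Thada*-activated library was above each control library, with means of 54.6 ± 3.89 and 24.5 ± 6.60 CPM (SD, n = 3). With condition as the only term edgeR estimated a log2 difference of 1.13 (standard error 0.22), where the unadjusted p was 0.00196 and the adjusted p 1, so the target itself was not called by that fit. DESeq2 with the same term called it. With the replicate block the edgeR estimate was 1.15 (standard error 0.10) with an adjusted p of 0.00041 by edgeR, and *Thada* was called. Over 18 alternatives its adjusted p ranged from 1.6e-17 to 1.

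Compared per length, *Bax* was the most abundant of the 10 members and made up from 37.8% to 45.5% of their summed FPKM in a library. Mean levels over the 6 libraries were 81.6 ± 12.6 FPKM (SD, n = 6) for *Bax*, 30.6 ± 3.49 FPKM for *Mcl1*, 24.8 ± 3.83 FPKM for *Bad* and 16.0 ± 1.18 FPKM for *Bcl2l1*. The range of *Bax* lay above that of every other member. *Mcl1* and *Bad* had overlapping ranges over the libraries, but *Mcl1* was above *Bad* within each of the 6 libraries. *Bok* (10.7 FPKM), *Bbc3* (9.80 FPKM), *Bcl2l11* (8.14 FPKM) and *Bak1* (7.98 FPKM) followed, with overlapping ranges. *Bbc3* changed place with the replicate, at 6.70 to 9.00 FPKM in replicates 1 and 2 and at 14.7 and 13.6 FPKM in control and *Thada*-activated replicate 3, above *Bok* in both and above *Bcl2l1* (14.6 FPKM) in control replicate 3. *Bid* (3.40 ± 1.12 FPKM) and *Bcl2* (1.32 ± 0.256 FPKM) were lowest. *Bcl2*, the founding member, was the least abundant of the 10 in each library, and *Mcl1* exceeded it by between 21.0-fold and 31.0-fold in FPKM. Between the effectors, *Bax* exceeded *Bak1* by between 9.45-fold and 10.7-fold in FPKM, a narrow range in which control and *Thada*-activated libraries overlapped.

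**Figure D1:**
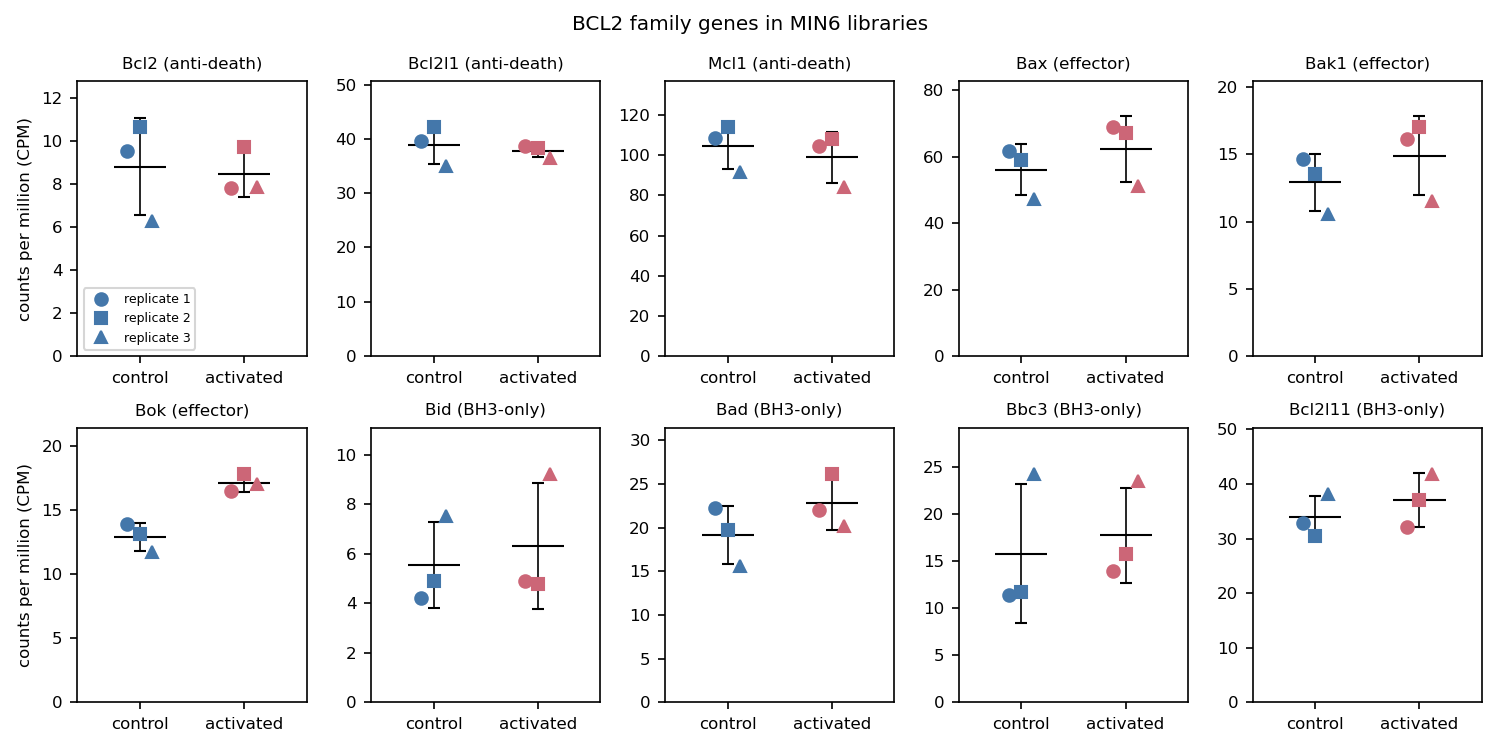
Level of each BCL2 family gene in CPM (vertical axes from 0) in 3 control and 3 *Thada*-activated libraries, with symbols for the replicate number, a line for the mean and bars for the SD (n = 3). *Bok* is the member whose conditions do not overlap, and replicate 3 is high for *Bid*, *Bbc3* and *Bcl2l11* and low for *Bax*, *Bak1*, *Mcl1* and *Bcl2l1* in both conditions.

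The first comparison asked which members differ between control and *Thada*-activated cells. Over all genes, edgeR's quasi-likelihood test with condition as the only term called 0 of 12516 tested genes (0%) at an adjusted p under 0.05 and a fold change over 1.5, with 101 genes (0.807%) at an unadjusted p under 0.05, while DESeq2 called 5 and limma on log2(FPKM + 1) called 0. Of the 10 members 0 were called, and *Bok* alone had an unadjusted p under 0.05. Blocking on the replicate number moved the genes called to 19 (0.152%), and 1302 (10.4%) had an unadjusted p under 0.05. Among the 10 members these counts were 0 and 2 (*Bok* and *Bad*). With replicates 1 and 2 only, a setting chosen after the data were seen, 68 of 12480 genes (0.545%) were called and again 0 of the 10 members, while 1970 genes (15.8%) and 5 members (*Bax*, *Bak1*, *Bok*, *Bad* and *Bbc3*) had an unadjusted p under 0.05.

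Of the anti-death members, *Bcl2* had CPM values of 9.55, 10.7 and 6.27 (control replicates 1 to 3) against 7.84, 9.72 and 7.90 (*Thada*-activated replicates 1 to 3). *Bcl2l1*, whose long product BCL-XL is a guard of the outer membrane, had CPM values of 39.6, 42.2 and 35.1 (control replicates 1 to 3) against 38.6, 38.4 and 36.5 (*Thada*-activated replicates 1 to 3). *Mcl1*, which encodes a short-lived anti-death protein, had CPM values of 109, 114 and 91.7 (control replicates 1 to 3) against 105, 108 and 84.4 (*Thada*-activated replicates 1 to 3). In all 3 genes the conditions overlapped, and replicate 3 was the lowest library of its condition except for *Bcl2* in *Thada*-activated cells, where replicate 1 was marginally lower. The log2 fold changes of *Thada*-activated over control cells were -0.08 (standard error 0.24) for *Bcl2*, -0.06 (0.11) for *Bcl2l1* and -0.10 (0.15) for *Mcl1*, each smaller than its standard error. With 1 library left out *Bcl2l1* ranged from -0.13 to -0.01. *Bcl2* ranged from -0.27 to 0.07 and *Mcl1* from -0.19 to 0.0082. *Bcl2* was above 0 without control replicate 2, and *Mcl1* without *Thada*-activated replicate 3. Within replicate numbers, *Mcl1* was lower in *Thada*-activated cells in each pair (log2 ratios -0.05, -0.08 and -0.12), as were 12.2% of all tested genes, while *Bcl2* and *Bcl2l1* were lower in replicates 1 and 2 and higher in replicate 3. The sign of *Bcl2* depended on the unit as well, with 0.04 by limma on log2(FPKM + 1) and 0.08 on log2(FPKM + 0.1).

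Of the effectors, *Bok*, a relative of BAX and BAK that resides largely on ER and Golgi membranes, had CPM values of 13.9, 13.1 and 11.8 (control replicates 1 to 3) against 16.5, 17.8 and 17.0 (*Thada*-activated replicates 1 to 3). Every *Thada*-activated library was above every control library, and *Bok* was the only one of the 10 members of which this held, against 3.65% of all tested genes higher and 1.78% lower without overlap. The means were 12.9 ± 1.08 and 17.1 ± 0.685 CPM (SD, n = 3), with p = 0.1 by a two-sided exact permutation test, the smallest p possible at this n. Its estimate by edgeR was 0.38 on the log2 scale (standard error 0.12), below the 1.5-fold threshold, where the unadjusted p was 0.0212 and the adjusted p 1. With the replicate block the unadjusted p was 0.00211 and the adjusted p 0.183 by edgeR, and over 18 alternatives the log2 fold change stayed between 0.32 and 0.44 and the adjusted p between 0.0561 and 1. *Bok* thus did not pass the threshold in any setting run.

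*Bax*, the main effector by level, had CPM values of 61.7, 59.1 and 47.3 (control replicates 1 to 3) against 68.9, 67.2 and 51.0 (*Thada*-activated replicates 1 to 3). *Bak1*, which encodes the effector that sits in the outer membrane of healthy cells, had CPM values of 14.6, 13.6 and 10.6 (control replicates 1 to 3) against 16.1, 17.0 and 11.6 (*Thada*-activated replicates 1 to 3). For both genes the *Thada*-activated library was above the control library of the same number in 3 of 3 pairs, but replicate 3 of the *Thada*-activated cells was below replicates 1 and 2 of the control cells. *Bax*, *Bak1* and *Bok* were the 3 members that were higher in every pair, as were 20.7% of all tested genes. The log2 fold changes of 0.13 (standard error 0.17) for *Bax* and 0.18 (0.21) for *Bak1* were within their standard errors, and with the block they were 0.13 (0.07) and 0.18 (0.10), with adjusted p-values of 0.533 and 0.576 by edgeR. Over 18 alternatives the adjusted p ranged from 0.151 to 1 for *Bax* and from 0.268 to 1 for *Bak1*. With 1 library left out the log2 fold change ranged from 0.03 to 0.27 for *Bax* and from 0.06 to 0.35 for *Bak1*.

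Of the BH3-only members, *Bad*, whose product is held inactive by phosphorylation, had CPM values of 22.2, 19.7 and 15.6 (control replicates 1 to 3) against 22.1, 26.2 and 20.1 (*Thada*-activated replicates 1 to 3). *Bbc3*, which encodes PUMA, had CPM values of 11.5, 11.7 and 24.3 (control replicates 1 to 3) against 14.0, 15.8 and 23.5 (*Thada*-activated replicates 1 to 3). *Bid*, whose product is activated by caspase-8 cleavage, had CPM values of 4.23, 4.89 and 7.52 (control replicates 1 to 3) against 4.91, 4.77 and 9.23 (*Thada*-activated replicates 1 to 3). Conditions overlapped in these 3 genes, and the replicate 3 libraries of *Bbc3* and *Bid* were above all others. *Bcl2l11*, which encodes BIM, had CPM values of 32.9, 30.5 and 38.3 (control replicates 1 to 3) against 32.1, 37.2 and 41.9 (*Thada*-activated replicates 1 to 3), again with overlap and with replicate 3 on top of each condition. The 4 log2 fold changes between conditions ranged from 0.10 for *Bcl2l11* to 0.23 for *Bad*, and each of the 4 genes was higher in *Thada*-activated cells in 2 of 3 pairs. For *Bbc3* the exception was replicate 3 (log2 ratio -0.05, against 0.29 and 0.43 in replicates 1 and 2), and its log2 fold change without replicate 3 was 0.35 (standard error 0.11), with an adjusted p of 0.0621 by edgeR. With 1 library left out the log2 fold change ranged from 0.10 to 0.35 for *Bad* and from 0.02 to 0.20 for *Bcl2l11*. The adjusted p of *Bbc3* ranged from 0.0621 to 1 over 18 alternatives. Leaving out a single library turned the sign for *Bbc3* and *Bid*, down to -0.11 and -0.21 without *Thada*-activated replicate 3. Without control replicate 3 the log2 fold changes were 0.59 for *Bbc3* and 0.44 for *Bid*, and neither was called.

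**Figure D2:**
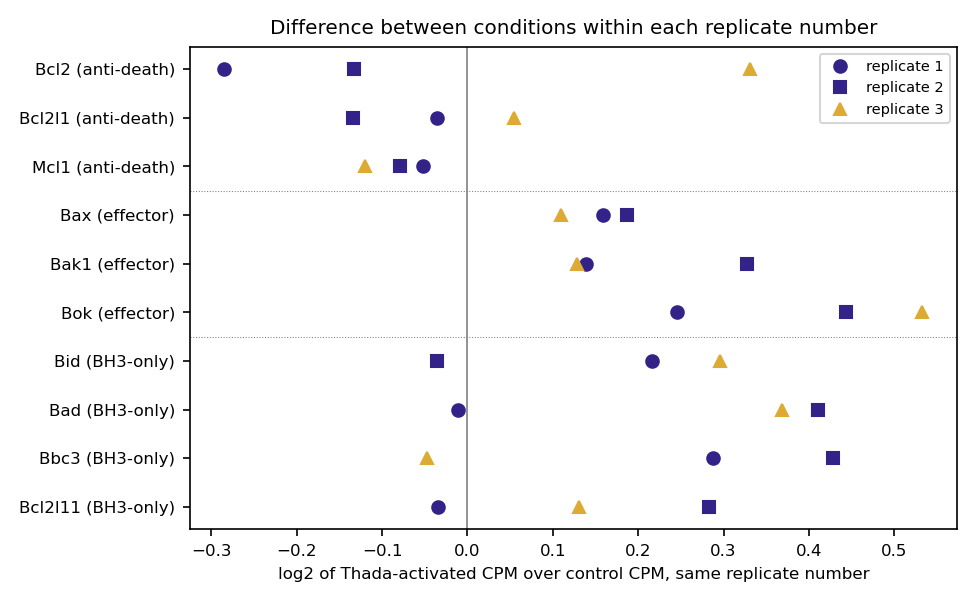
Log2 of the *Thada*-activated CPM over the control CPM of the same replicate number (horizontal axis) for each BCL2 family gene (vertical axis), ordered by role, 1 symbol per replicate number. The 3 effectors lie above 0 in every pair, *Mcl1* lies below 0 in every pair, and *Bcl2* and *Bcl2l1* are below 0 in replicates 1 and 2 only.

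Taken by role, the estimated fold change was above 0 for 7 of 7 pro-death members and below 0 for 3 of 3 anti-death members, where 48.7% of all tested genes were above 0. The median log2 fold change was 0.16 over the pro-death members, -0.08 over the anti-death members and 0.00 over all tested genes. None of these 10 estimates passed the test, and the split is a description of small differences. It held with each count scaling tried and with the block, with 2 of 3 anti-death members below 0 on the FPKM scale, and it was broken by leaving out control replicate 1, control replicate 2 or *Thada*-activated replicate 3 (5, 6 and 5 of 7 pro-death members above 0, and 3, 2 and 2 of 3 anti-death members below 0). The split is that of the 10 chosen members. Of the 7 other BCL2 family genes tested, 4 were above 0 and 3 below. Among them the anti-death gene *Bcl2l2* was at 0.01 (standard error 0.17).

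The ratio of pro-death to anti-death transcripts was taken within each library from summed FPKM. The log2 ratio of the 7 pro-death to the 3 anti-death members was 1.53, 1.39 and 1.56 in control replicates 1, 2 and 3 and 1.72, 1.74 and 1.73 in the *Thada*-activated ones. The *Thada*-activated libraries lay close together and above each control library, with means of 1.73 ± 0.01 and 1.49 ± 0.09 (SD, n = 3), a difference of 0.24 that was larger than the SD of either condition. *Bax* held most of the effector sum, and the effector ratio was 1.03, 0.90 and 0.89 in control and 1.25, 1.21 and 1.06 in *Thada*-activated replicates 1, 2 and 3. The BH3-only ratio was -0.24, -0.43 and 0.13 in control and -0.13, 0.02 and 0.31 in *Thada*-activated replicates 1, 2 and 3, so its conditions overlapped and replicate 3 was the highest of each. These sums are over members that were chosen with results known, and no test was made of them. Other family genes are outside the sums. Among these is the anti-death gene *Bcl2l2*, whose mean of 33.6 FPKM was above that of *Mcl1* (30.6 FPKM), and a ratio that includes it was not taken. The ratio of the single pair *Bax* to *Bcl2* did not separate the conditions, with 5.95 ± 0.23 in control and 5.98 ± 0.17 in *Thada*-activated cells on the log2 scale (SD, n = 3).

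**Figure D3:**
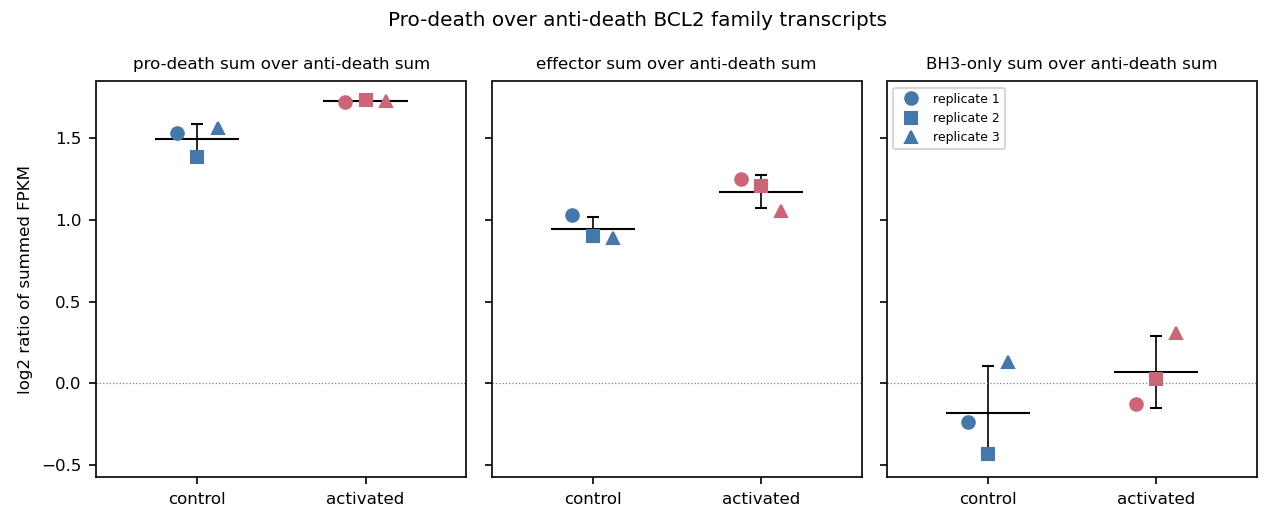
Log2 ratio of summed FPKM (vertical axis) of all pro-death members, of the effectors and of the BH3-only members over the anti-death members, in 3 control and 3 *Thada*-activated libraries, with the mean as a line and the SD as bars (n = 3). The ratio over all pro-death members is between 1.72 and 1.74 in *Thada*-activated and between 1.39 and 1.56 in control libraries, and the BH3-only ratio is highest in replicate 3 of each condition.

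The second comparison set replicate 3 against replicates 1 and 2, with the condition as a term in the model. This split was made with the separation of these libraries known, so its p-values describe the 6 libraries, of which 2 are replicate 3. Over all genes edgeR called 1970 (15.7%) higher and 1923 (15.4%) lower in replicate 3. Of the 10 members 2 were called higher, *Bbc3* and *Bid*, and 0 lower. With no fold threshold 8 members had an adjusted p under 0.05, 3 of them higher (34.3% of all tested genes) and 5 lower (34.4%).

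*Bbc3* had a mean of 13.2 CPM in the 4 libraries of replicates 1 and 2 and of 23.9 CPM in the 2 libraries of replicate 3, with a log2 difference of 0.85 with a standard error of 0.11 (edgeR, adjusted p = 5.2e-06). *Bid* had means of 4.70 and 8.37 CPM and a log2 difference of 0.82 with a standard error of 0.13 (edgeR, adjusted p = 6.92e-05). Both were past the threshold in each of 15 alternatives, with adjusted p-values from 9.03e-13 to 0.000162 for *Bbc3* and from 1.08e-05 to 0.000621 for *Bid*. *Bcl2l11*, the third member that was higher, had a log2 difference of 0.27 with a standard error of 0.08 (edgeR, adjusted p = 0.00703), under the fold threshold. *Bid*, *Bbc3* and *Bcl2l11* were the 3 members with both replicate 3 libraries above the other 4, as were 36.6% of all tested genes.

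The fourth BH3-only gene went the other way, with a log2 difference of -0.35 for *Bad* (standard error 0.10, adjusted p = 0.00612 by edgeR). Among the effectors and the anti-death members all 6 estimates were below 0, from -0.48 for *Bak1* to -0.11 for *Bok*. *Bax* (-0.39), *Bak1* (-0.48), *Mcl1* (-0.31) and *Bcl2* (-0.42) had adjusted p-values of 7.99e-05, 0.000695, 0.000226 and 0.0187 by edgeR without reaching the fold threshold, whereas *Bcl2l1* (-0.16) and *Bok* (-0.11) had 0.0546 and 0.335. With 1 library left out *Bok* ranged from -0.19 to -0.04, and the adjusted p of *Bcl2l1* ranged from 0.0369 to 0.294 over 15 alternatives. *Bcl2* depended on the libraries, with -0.67 without *Thada*-activated replicate 3, past the fold threshold, and -0.18 without control replicate 3. Its adjusted p ranged from 0.000487 to 0.355 over 15 alternatives, and it was above 0.05 with DESeq2 and without control replicate 2 as well. *Bax*, *Bak1*, *Mcl1* and *Bcl2l1* were the 4 members with both replicate 3 libraries below the other 4, as were 35.4% of all tested genes. The BH3-only to anti-death ratio was 0.41 higher on the log2 scale in replicate 3 and the effector ratio 0.12 lower (from 0.21 to 0.04 lower with 1 library left out, without *Thada*-activated and without control replicate 3), and the log2 ratio of *Bbc3* to *Mcl1* in FPKM was -0.89 in replicate 3 against -2.11 in replicates 1 and 2. β-cell markers and the share of *Ins2* differed in replicate 3 as well, as did markers of other cells (*Ppy* 0.70 and *Col1a1* 1.28 called higher, *Sst* -1.14 and *Krt19* -0.83 called lower, as was *Cd68*), and their part in these differences was not tested.

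The third comparison asked whether the difference between conditions differs between replicate 3 and the other replicates. Over all genes edgeR called 227 (1.81%), and 2643 (21.1%) had an unadjusted p under 0.05. The number called was 345 without control replicate 1 and 159 without *Thada*-activated replicate 1, and it was 42 with DESeq2 and 46 and 107 with limma on log2(FPKM + 1) and log2(FPKM + 0.1). Of the 10 members 0 were called and 2 had an unadjusted p under 0.05, *Bbc3* and *Bcl2*, which is near the share over all genes. *Bbc3* had an interaction of -0.45 on the log2 scale (standard error 0.17, adjusted p = 0.091 by edgeR) and *Bcl2* one of 0.49 (standard error 0.25, adjusted p = 0.233 by edgeR).

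Positions are those of GENCODE M21 on GRCm38. *Bbc3* lies on the plus strand at chr7:16308393-16318205 and *Bax* on the minus strand of the same chromosome at chr7:45461697-45466898. *Bok* (chr1:93685660-93695764, plus strand) and *Bcl2* (chr1:106538178-106714274, minus strand) share a chromosome as well, as do *Bcl2l11* (chr2:128126038-128162547, plus strand) and *Bcl2l1* (chr2:152780668-152831728, minus strand). *Bid* lies at chr6:120891930-120916853 on the minus strand and *Bad* at chr19:6941861-6951899 on the plus strand. *Mcl1* lies at chr3:95658788-95663176 on the plus strand, and *Bak1* lies on the minus strand at chr17:27019810-27029009, on the chromosome of *Thada* (chr17:84190076-84466205, minus strand). Exons of *Bid*, *Bad* and *Bak1* overlap on the opposite strand with exons of *Bcl2l13*, *Gpr137* and *Ggnbp1*, which were counted too (628, 524 and 614 shared exonic bases). Whether the counting used strand is not given in the sources used here, and reads from these overlaps may be split between the genes. The log2 differences of these 3 in replicate 3 were 0.20 (standard error 0.05) for *Bcl2l13*, at 91.3 to 112 CPM, -0.09 (0.09) for *Gpr137* and 0.83 (0.24) for *Ggnbp1*, at 1.52 to 4.06 CPM. The first 2 had the direction of *Bid* and *Bad*, and *Ggnbp1* had the opposite direction to *Bak1*. Exons of *Bax* overlap on the same strand with those of the protein-coding gene *Gm45808* (192 shared exonic bases). Exons of *Bcl2* overlap on the opposite strand with those of *D630008O14Rik* (558 shared exonic bases). Neither *Gm45808* nor *D630008O14Rik* was among the counted genes. Sharing of reads was not tested.

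Promoter sequences were taken from RefSeq (GRCm38.p6) as 250 bases before to 50 after a transcript start, and all 10 members were matched, with 16 windows. They were searched on both strands for 7 short motifs. The forkhead letters TGTTTAC were found in 3.65% of the 32851 promoters of all genes and in 2 of the 16 windows, 1 of *Bbc3* and 1 of *Bcl2l11*. Both genes were higher in replicate 3, *Bcl2l11* under the fold threshold. *Bid*, the third such gene, had none in its window. The 2 windows are shown 5′ to 3′ on the plus strand, chr7:16310011-16310310 for *Bbc3* and chr2:128125788-128126087 for *Bcl2l11*, with the match in capitals.
*Bbc3*: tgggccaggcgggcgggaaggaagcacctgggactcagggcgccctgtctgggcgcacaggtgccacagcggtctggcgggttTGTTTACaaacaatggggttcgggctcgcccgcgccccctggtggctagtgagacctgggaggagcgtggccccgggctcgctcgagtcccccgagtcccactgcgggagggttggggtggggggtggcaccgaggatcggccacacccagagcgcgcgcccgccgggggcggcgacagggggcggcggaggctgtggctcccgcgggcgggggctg
*Bcl2l11*: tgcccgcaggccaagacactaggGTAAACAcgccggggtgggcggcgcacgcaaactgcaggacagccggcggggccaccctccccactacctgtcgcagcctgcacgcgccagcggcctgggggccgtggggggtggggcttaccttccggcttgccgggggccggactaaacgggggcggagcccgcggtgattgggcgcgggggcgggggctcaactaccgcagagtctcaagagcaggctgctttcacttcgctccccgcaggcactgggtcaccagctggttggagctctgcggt
The match starts 167 bases before the transcript start in *Bbc3* and 227 bases before it in *Bcl2l11*, where it reads on the opposite strand. The E-box CACGTG was present in 1 window each of *Bax* and *Bbc3* (7.15% of all promoters). In replicate 3 *Bax* was lower (log2 difference -0.39, under the fold threshold) and *Bbc3* higher (0.85). The GC box GGGCGG was present in 11 of the 16 windows, from 8 of the 10 members (35.7% of all promoters), and CCAAT in 4 windows (37.4%). TATAAA (13.6% of all promoters), TGATGNAA (3.97%) and TGACGTCA (1.79%) were in 0 of the windows. A match of letters is a description of the sequence only.

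Other genes around the family were taken from 6 lists with 96 tested genes. Between conditions 0 of the 96 were called and 0 had an unadjusted p under 0.05 by edgeR, and with the block 0 were called and 12 had an unadjusted p under 0.05 (10.4% of all tested genes). The median log2 fold change was -0.02 over the lists. In replicate 3, 10 of the 96 were called higher (15.7% of all tested genes) and 13 lower (15.4%), so the lists held no larger share than all genes did in that comparison. In the interaction edgeR called 5 of the 96 (1.81% of all tested genes), and 27 had an unadjusted p under 0.05 (21.1%). The list genes named below are descriptions of single genes, and their numbers per list are not results about the lists.

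Among the other BCL2 family members, 7 of 12 counted genes were tested, and in replicate 3 *Bmf* and *Bcl2l12* were called higher and *Bnip3* and *Bik* lower. *Bmf*, a BH3-only gene, was between 18.3 and 19.2 CPM in replicates 1 and 2 and at 35.4 and 43.0 CPM in control and *Thada*-activated replicate 3 (log2 fold change 1.06, adjusted p = 3.38e-08 by edgeR). *Bnip3*, which encodes a mitophagy receptor induced by hypoxia, was between 266 and 385 CPM in replicates 1 and 2 and at 137 and 142 CPM in replicate 3 (log2 fold change -1.18). For both genes the replicate 3 libraries lay outside the range of the others. *Bik*, at 0.678 to 2.71 CPM, was not called in 6 of 15 alternatives, which were DESeq2, limma on log2(FPKM + 1), the fit with no condition term, and the fits without control replicate 1, control replicate 3 or *Thada*-activated replicate 1 (log2 fold changes of the last 3 -0.64, -0.55 and -0.75). *Bcl2l2*, which encodes the anti-death protein BCL-W, had a mean of 33.6 FPKM, above that of *Mcl1* (30.6 FPKM). Its log2 fold change was 0.01 between conditions and -0.40 in replicate 3, and neither was called.

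Of the 19 genes of the apoptosome, caspases and IAPs, 2 were called higher and 4 lower in replicate 3, against 15.7% and 15.4% of all tested genes. *Sept4*, whose ARTS product binds and antagonizes XIAP, was between 0.920 and 1.39 CPM in replicates 1 and 2 and at 9.67 and 9.29 CPM in replicate 3 (log2 fold change 3.06, adjusted p = 2.90e-09 by edgeR), and *Birc3* was the other higher gene (0.72), which limma on log2(FPKM + 1) did not call. *Apaf1*, the scaffold of the apoptosome, was between 27.8 and 32.8 CPM in replicates 1 and 2 and at 17.1 and 17.4 CPM in replicate 3 (log2 fold change -0.84, adjusted p = 9.64e-07 by edgeR). The 2 conditions gave similar values in both genes, and replicate 3 was apart. *Birc6* (-1.02), *Dffb* (-0.68) and *Endog* (-0.62) were the other lower genes, and *Endog* was not called in 5 of 15 alternatives, among them those without control replicate 2, *Thada*-activated replicate 1 or *Thada*-activated replicate 3 (-0.55, -0.58 and -0.36). The initiator *Casp9* had a log2 difference of 0.53 and was not called.

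Of the 16 mitochondrial partners, *Mtch1* was called higher (log2 fold change 0.63, and not called at 0.58 without control replicate 3) and *Slc25a5*, an ADP/ATP carrier, lower (-0.99, adjusted p = 1.95e-09 by edgeR). Of the 12 ER residents and partners, *Itpr3*, an inositol trisphosphate receptor, and *Bcap31* were called lower in replicate 3, at -0.68 and -0.64, and *Itpr3* was not called by limma on log2(FPKM + 1). *Bcap31*, an ER membrane protein cut by caspase-8, was between 286 and 321 CPM in replicates 1 and 2 and at 197 and 194 CPM in replicate 3. Both lists had 0 genes called between conditions or in the interaction.

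Of the 20 counted transcriptional regulators, *Ddit3* and *Foxo4* were called higher and *Trp73* lower in replicate 3, and *Trp73* was not called by limma on log2(FPKM + 1). *Ddit3*, which encodes the ER stress factor CHOP, was between 25.1 and 33.6 CPM in replicates 1 and 2 and reached 163 CPM (control) and 77.9 CPM (*Thada*-activated) in replicate 3 (log2 fold change 1.97, adjusted p = 4.23e-05 by edgeR). *Foxo4* was between 13.2 and 15.4 CPM in replicates 1 and 2 and at 29.3 and 26.5 CPM in replicate 3 (log2 fold change 0.98), while *Foxo1* and *Foxo3* had 0.17 and -0.10 and were not called. *Ddit3*, *Trp53* and *Cdkn1a* were also called in the interaction, each lower in *Thada*-activated than in control replicate 3. *Trp53*, which encodes p53, a known inducer of *Bbc3* and *Bax*, was between 53.1 and 60.1 CPM in replicates 1 and 2 and at 48.2 and 35.8 CPM in control and *Thada*-activated replicate 3. *Cdkn1a*, a p53 target, was at 182 and 135 CPM in the same libraries. The interaction of *Trp53* was not called in 5 of 12 alternatives (adjusted p up to 0.0726), among them the one without control replicate 2 (-0.53). That of *Cdkn1a* was not called in 1 of 12, without control replicate 1 (-0.58).

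Of the 22 genes of turnover and phosphorylation, *Pim1*, *Pim3* and *Rps6ka1*, which encode kinases that phosphorylate BAD, were called higher in replicate 3. *Pim3* was between 25.4 and 27.6 CPM in replicates 1 and 2 and at 62.9 and 52.4 CPM in replicate 3, and *Pim1* was between 11.3 and 12.9 CPM and at 27.0 and 26.1 CPM in the same libraries (log2 fold change 1.10 for both, adjusted p = 7.65e-08 for *Pim1* and 1.24e-08 for *Pim3* by edgeR). The replicate 3 libraries were above all others in both genes. *Rps6ka1*, at 0.61, was not called in 3 of 15 alternatives, by limma on log2(FPKM + 1) and without *Thada*-activated replicate 2 or 3 (0.58 in each of the last cases). *Usp9x*, which encodes a deubiquitinase of MCL1, *Ywhab* and *Trim17* were called lower at -0.64, -0.61 and -1.33, and *Ywhab* and *Trim17* were each not called in 2 of 15 alternatives, among them the one without control replicate 3 (-0.57 and -0.63).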

How the data were processed

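Members and gene lists were chosen with earlier results of these data known. The authors deposited an estimated count (RSEM expected count) per gene and library and FPKM values; the submitters' processing notes name Bowtie2, RSEM, DESeq2 and GRCm38. Deposited columns of the authors' own comparison (log2 fold change, p-value, q-value) and TPM were not used. Counts were rounded, filtered by filterByExpr, normalized by TMM and tested in R 4.3.3 with edgeR 4.0.16 (robust quasi-likelihood test, Benjamini-Hochberg adjusted p under 0.05 over all tested genes, fold change over 1.5). DESeq2 1.42.0 and limma 3.58.1 (with trend) were alternatives, and the edgeR fits were tested on simulated data. Named genes were the members, *Thada*, called genes of each list and a few list genes of known role. CPM used library totals without TMM.

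Libraries with the same replicate number deviated together from the mean of their condition (correlations across genes 0.667, 0.671 and 0.869), the only source of the pairing. Crossing replicates 1 and 2 gave 0.705 and 0.726, so only replicate 3 is set apart. Whether the counting used strand is not given in the sources used here. Blocking on these numbers moved the genes called from 0 to 19. In a chi-square test over genes, each pair of libraries of a condition differed by more than counting noise. *Thada*-activated replicates 1 and 2 came closest, with a chi-square over degrees of freedom of 1.84. This test cannot tell repeated preparations of the same culture from separate cultures.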

Additional observations from a re-analysis of the deposited data

Results flagged for a closer look

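In 5 of the 96 tested genes of the lists (1.81% of all tested genes), the difference between conditions in replicate 3 differed from that in replicates 1 and 2 by edgeR's interaction test. The interactions on the log2 scale were -0.77 for *Ddit3* (adjusted p = 1.08e-06), -0.62 for *Cdkn1a* (adjusted p = 1.67e-06), -0.64 for *Birc5* (adjusted p = 0.000492), -0.59 for *Trp53* (adjusted p = 0.000516) and 1.74 for *Trim17* (adjusted p = 0.0494), all by edgeR. *Birc5*, which encodes the IAP survivin, was between 45.8 and 52.4 CPM in replicates 1 and 2 and at 40.1 and 28.1 CPM in control and *Thada*-activated replicate 3. *Trim17* was at 0.584 and 1.65 CPM in the same 2 libraries. *Ddit3* passed in each of 12 alternatives. *Cdkn1a* did not pass in 1 of 12, *Birc5* in 4 (adjusted p up to 0.083), *Trp53* in 5 (up to 0.0726) and *Trim17* in 5 of 11 (up to 0.227) by edgeR, DESeq2 or limma. Among these were the fits with 1 library left out, in which *Cdkn1a* did not pass without control replicate 1 (-0.58), *Birc5* without *Thada*-activated replicate 1 (-0.55), *Trp53* without control replicate 2 (-0.53), and *Trim17* without control replicate 2, *Thada*-activated replicate 1 or *Thada*-activated replicate 2 (1.45, 1.64 and 1.84). With 1 library of each condition in replicate 3, the spread there is assumed to be that of the other libraries.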

How the results depend on the processing

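The number of genes called between conditions was 0 in edgeR and moved to 5 with DESeq2, 19 with the replicate block, 20 with the block in DESeq2, 11 with the block in limma, and 68 with replicates 1 and 2 only, chosen after the data were seen. The block changed no call of a member. The count for replicate 3 was 3893 and moved to 8592 with no fold threshold, and for the interaction it was 227 and moved to 42 (DESeq2), 46 and 107 (limma, pseudocounts 1 and 0.1) and 871 (no fold threshold). With each library left out in turn the counts were 0 to 0, 3648 to 4082 and 159 to 345, and the interaction could not be fitted without a replicate 3 library. Of 180 values of members between conditions 10 changed sign: *Bcl2* with limma (0.0405, 0.0783, and 0.0405 with the block), and with single libraries left out *Bcl2* (-0.27 to 0.0725), *Mcl1* (-0.19 to 0.0082), *Bid* (-0.21 to 0.44) and *Bbc3* (-0.11 to 0.59). The interaction of *Bcl2l11* ranged from -0.14 to 0.0725. Of 150 values for replicate 3, 0 changed sign and 7 passed in addition, 6 of them because the fold threshold was dropped and 1 (*Bcl2*) without *Thada*-activated replicate 3. The pro-death to anti-death log2 ratio differed by 0.05 between replicate 3 and the others in FPKM and by 0.24 in CPM; leaving out libraries gave -0.03 to 0.14, and -0.21 to -0.04 for the effector ratio, whose difference was -0.12. DESeq2 gave no adjusted p for the interaction of *Trim17*. With a library left out, 1 remaining replicate 3 library is assumed to vary like the others. The causes were not tested. A single count is 0.0564 to 0.0583 CPM, which limits the genes of low level such as *Slc2a2*, *Krt19*, *Cd68*, *Bcl2l12*, *Bik* and *Trim17*.

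Replicate 3 has 1 library per condition, so its difference from the other replicates rests on 2 libraries, and what sets these apart (culture, passage, day or library preparation) was not tested. The *Thada*-activated line was drug-selected, and whether the control cells were is not stated, so a part of selection in the differences was not tested. A member that missed the threshold is not shown to be equal. The RNA libraries do not measure protein levels, binding, phosphorylation or cleavage of the family, or cell death.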
